A study of Mus musculus with 6 samples.

Results

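The carboxylesterases of mouse liver were followed through 10 genes, Ces1c, Ces1d, Ces1e, Ces1f, Ces1g, Ces2a, Ces2c, Ces2e, Ces3a and Ces3b, taken from a liver table of 28880 genes by their symbols. Each symbol had 1 row, and all 10 genes passed the filter on low counts. All 6 libraries came from liver of male C57BL/6J mice of wild type genotype, 6 to 8 weeks old. The 3 ethanol mice were fasted for 12 h, received ethanol once by mouth (6 g/kg, as a 50% solution) and gave liver 24 h later, whereas the 3 control mice had no ethanol. Whether the control mice were fasted or gavaged with vehicle is not stated in the sources used here, so ethanol and fasting cannot be told apart. The model is a single dose, and all libraries carry the same batch label.

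Carboxylesterases are serine hydrolases that cleave esters, amides and thioesters, among them many drugs, and several also hydrolyse triacylglycerol in hepatocytes. Most enter the endoplasmic reticulum, where a catalytic serine within a Gly-X-Ser-X-Gly motif attacks the ester bond and a His-X-Glu-Leu signal at the carboxyl end keeps the enzyme in that compartment. An enzyme without that signal can be secreted, as is the case for Ces1c, the carboxylesterase of mouse plasma. The liver is a main site of expression of the family in the mouse.

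The coding bases of the motif and of the carboxyl end are shown for 4 genes, because the family members differ in sequence there. Whether these differences alter catalysis or retention was not tested. They were read from GENCODE M21 transcripts on GRCm38, 5′ to 3′ on the coding strand. In the first set the 5 codons of the motif are in capitals. Ces1c lies on the minus strand at chr8:93123114-93123142, Ces1d on the minus strand at chr8:93187757-93187785, Ces2a on the plus strand at chr8:104737403-104737431 and Ces3a on the plus strand at chr8:105051579-105051607, in each case in coding sequence of exon 5.
Ces1c: catctttGGAGAGTCATCAGGGggtatca
Ces1d: catctttGGAGAGTCAGCAGGAggtttca
Ces2a: tatatttGGAGTCTCAGCAGGAggtacaa
Ces3a: tatcttcGGTAACTCTGCTGGAggcatta
Codons 2 and 4 of the motif were GAG and GCA in 6 genes (Ces1d, Ces1e, Ces1f, Ces1g, Ces2c and Ces2e). They were GAG and TCA in Ces1c, GTC and GCA in Ces2a, and AAC and GCT in Ces3a and Ces3b.

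In the second set the last 4 codons before the stop codon are in capitals. These stretches lie in the last coding exon, at chr8:93099168-93099197 for Ces1c, chr8:93166258-93166287 for Ces1d, chr8:104741384-104741413 for Ces2a and chr8:105058071-105058100 for Ces3a.
Ces1c: acagaccctactgaacacACAGAACACAAA
Ces1d: aggccatcccacagggaaCATGTTGAGCTC
Ces2a: aagggttctcaggacaagCATGCAGAGCTG
Ces3a: cagagaagcaggaaagttCCAGAGGAGCTC
Of the 10 genes, 7 ended in codons for the His-X-Glu-Leu signal. Ces1c lacked it, and Ces3a and Ces3b ended alike, with only the last 2 of its codons.

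Ces1c and Ces3a carried most of the carboxylesterase transcript in both groups. Levels are given as FPKM, fragments corrected for the length of the transcript and the size of the library, which allows genes of different length to be compared. By mean FPKM over the 6 libraries, Ces1c ranked 88 and Ces3a ranked 92 among all 28880 genes, and the lowest member, Ces2c, ranked 864. Together Ces1c and Ces3a made up 54.2% to 57.0% of the summed FPKM of the 10 genes in the ethanol libraries and 60.9% to 65.8% in the controls. Within the controls the order by mean FPKM was Ces3a, Ces1c, Ces1d, Ces3b, Ces2a, Ces1f, Ces1g, Ces2e, Ces1e and Ces2c. Among neighbours in this order, the control libraries overlapped for Ces3a and Ces1c, Ces1d and Ces3b, Ces3b and Ces2a, Ces1g and Ces2e, and Ces1e and Ces2c.

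**Figure D1:**
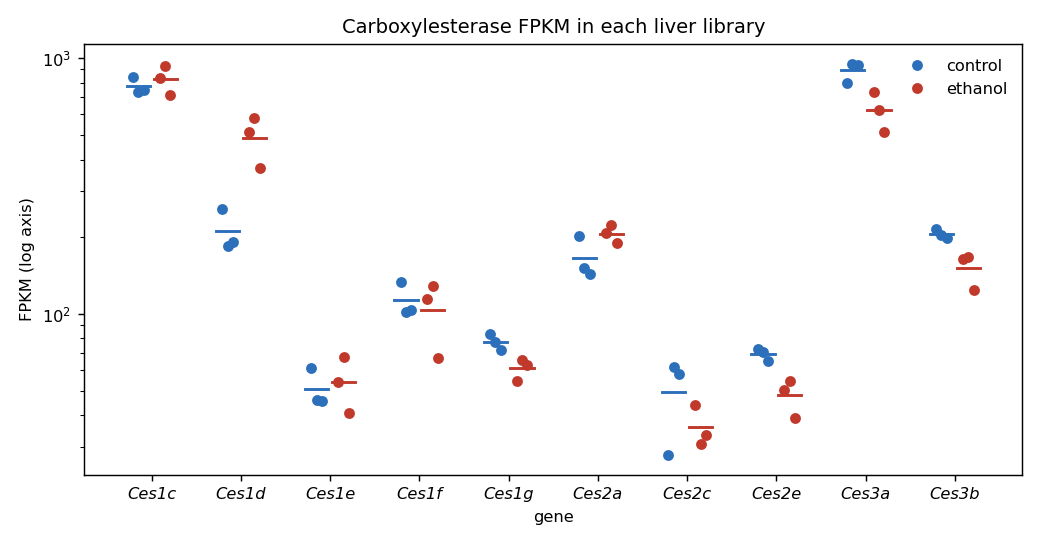
FPKM (log axis) of the 10 carboxylesterase genes, with 1 point per library and a line at the group mean (3 ethanol, 3 control). Ces1d is the gene whose ethanol libraries (369 to 581) all lie above its controls (183 to 257), while Ces1g, Ces2e, Ces3a and Ces3b lie below theirs on this scale.

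Ces1d, which codes for the hepatic triacylglycerol hydrolase that mobilises stored lipid for VLDL assembly, rose after ethanol. Its FPKM was 511, 581 and 369 in ethanol mice 1 to 3 and 257, 183 and 190 in control mice 1 to 3. All 3 ethanol mice were above all 3 control mice, and ethanol mouse 3 was the lowest of its group. With counts scaled by TMM factors, which set the typical gene to no change, the log2 fold change was 1.88 (SE 0.20, adjusted p = 6.06e-04), a 3.68-fold rise. With library size alone it was 1.22 (adjusted p = 0.00252), so the rise passed both scalings at a different size.

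Ces1d was the only 1 of the 10 genes called, and none was called lower. A call needed an absolute log2 fold change above 1 together with an adjusted p below 0.05, in edgeR's quasi-likelihood test over 16717 genes. Of all genes tested 24.2% were called, 10.4% higher and 13.8% lower, so 1 of 10 called higher is a share near the background. Without the threshold on the fold change, 5 genes passed (Ces1c, Ces1d, Ces1e, Ces1g and Ces2a), all in the higher direction, where 21.5% of all genes were higher and 21.5% lower. That count moved with single mice. It was 8 without ethanol mouse 3 (Ces1f, Ces2e and Ces3b in addition) and 3 without control mouse 2 or without control mouse 3 (Ces1c, Ces1d and Ces2a). The median log2 fold change of the 10 genes was 0.43, beside -0.04 over all genes tested.

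The scaling bears on the direction of the smaller differences. TMM factors were 0.77 to 0.84 in the ethanol libraries and 1.26 to 1.27 in the controls, and with library size alone the median over all genes tested was -0.71. On that scale the median of the 10 genes was -0.23, above the median of all genes as it was with TMM. All 10 genes lay above 0 with TMM factors, whereas 4 lay above 0 and 6 below with library size alone. By library size Ces1g, Ces2e, Ces3a and Ces3b were lower at an adjusted p under 0.05, with log2 fold changes of -0.33, -0.53, -0.52 and -0.44. By the same rule 48.3% of all genes tested were lower on that scale, so 4 of 10 is a share near the background.

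**Figure D2:**
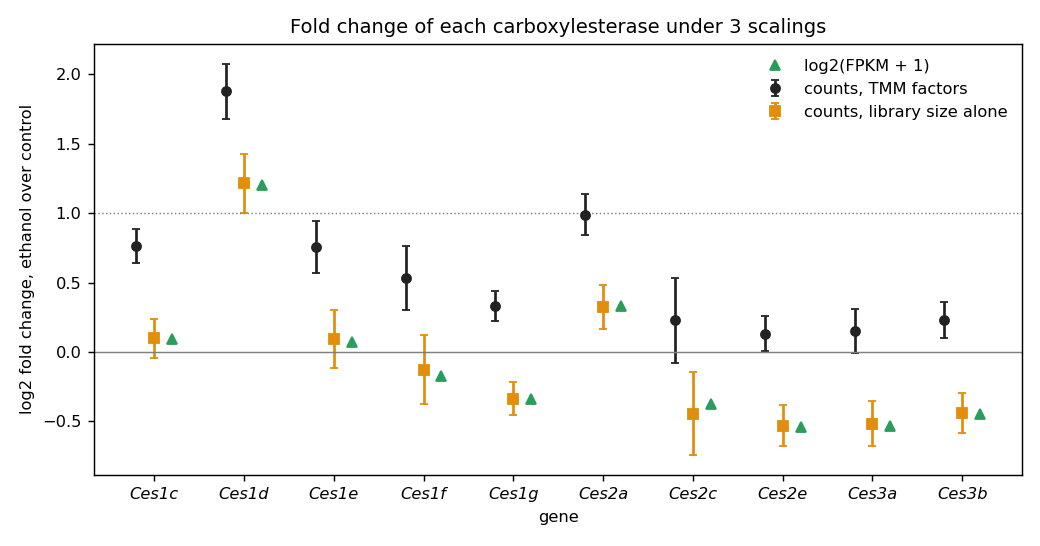
Log2 fold change of each gene, ethanol over control, from counts with TMM factors (circles, bars are SE), from counts with library size alone (squares, bars are SE) and from log2(FPKM + 1) (triangles). The dotted line marks a log2 fold change of 1, Ces1d lies above it under all 3 scalings, and Ces1f, Ces1g, Ces2c, Ces2e, Ces3a and Ces3b change sign between them.

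Whether libraries overlapped showed the same dependence. In CPM, which is counts scaled to the TMM-corrected library size, the ethanol and control libraries did not overlap for Ces1c, Ces1d, Ces1e, Ces1g and Ces2a, all higher, where 28.0% of all genes tested were separated upward and 31.0% downward. In FPKM, 1 gene (Ces1d) was separated upward and 4 (Ces1g, Ces2e, Ces3a and Ces3b) downward, where 9.45% of all genes were separated upward and 57.4% downward. The share separated upward in FPKM is near its background. No test compared these shares with those of all genes.

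The other Ces1 genes differed less than Ces1d. Ces1c, the plasma enzyme, had 833, 931 and 716 FPKM in the ethanol mice and 839, 734 and 746 in the controls. These ranges overlapped, with a TMM log2 fold change of 0.77 (SE 0.12, adjusted p = 0.00295) and one of 0.10 by library size (adjusted p = 0.568). Ces1e codes for egasyn, which holds beta-glucuronidase in the endoplasmic reticulum. Its FPKM was 54.1, 67.5 and 41.0 with ethanol and 61.1, 45.8 and 45.5 without, and the TMM log2 fold change was 0.76 (SE 0.19, adjusted p = 0.0159), against 0.10 by library size.

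Ces1f, also known as a triacylglycerol hydrolase, had 114, 128 and 66.9 FPKM in the ethanol mice and 133, 101 and 103 in the controls. The groups overlapped, with ethanol mouse 3 the lowest of all 6, and the TMM log2 fold change of 0.53 (SE 0.23) had an adjusted p of 0.0995. Ces1g, which hydrolyses lipid esters in liver and intestine, had 54.7, 66.0 and 63.0 FPKM against 82.8, 77.4 and 72.0. All ethanol mice were below the controls in FPKM, while the TMM log2 fold change was 0.33 (SE 0.11, adjusted p = 0.0436), so its direction rested on the scaling.

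Ratios within a library do not depend on the scaling. The FPKM ratio of Ces1d to Ces1c was 0.613, 0.625 and 0.516 in the ethanol mice and 0.306, 0.250 and 0.254 in the controls. The groups did not overlap. The ratio of Ces1d to Ces3a was 0.697, 0.928 and 0.722 with ethanol and 0.322, 0.193 and 0.203 without, again with no overlap. The ratio of Ces2c to Ces2a was 0.213, 0.140 and 0.178 with ethanol and 0.140, 0.412 and 0.405 without, and these overlapped, with control mouse 1 the lowest of the 6. These 3 ratios were the ones computed. With 3 mice against 3, an exact permutation test (two-sided) of such a ratio could not go below p = 0.10.

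Among Ces2 genes, Ces2a lay at the threshold. Ces2a, a hepatic hydrolase of acylglycerols, had 207, 221 and 188 FPKM in the ethanol mice and 200, 150 and 143 in the controls. Control mouse 1 reached the range of the ethanol mice, while the other 2 controls were lower. The TMM log2 fold change was 0.99 (SE 0.15, adjusted p = 0.0023), just under the threshold of 1, and without control mouse 1 it was 1.15 (adjusted p = 0.00324). Without ethanol mouse 3 it was 1.04 (adjusted p = 6.08e-04). By library size it was 0.32 (adjusted p = 0.122).

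Ces2c, which hydrolyses acylcarnitine and drug esters, had 43.9, 30.9 and 33.4 FPKM with ethanol and 27.9, 61.9 and 58.0 without. Control mouse 1 was the lowest of the 6 libraries and the other controls were the highest. The TMM log2 fold change was 0.23 (SE 0.31, adjusted p = 0.572), -0.06 without control mouse 1 (adjusted p = 0.84) and -0.44 by library size. Ces2e, a further member of the subfamily, had 50.4, 54.4 and 38.9 FPKM in the ethanol mice and 72.4, 70.5 and 65.3 in the controls. It was lower in all ethanol mice in FPKM, with a TMM log2 fold change of 0.13 (SE 0.13, adjusted p = 0.43).

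Ces3a and Ces3b code for liver microsomal esterases and lie side by side. Ces3a had 733, 627 and 511 FPKM in the ethanol mice and 797, 949 and 936 in the controls, and Ces3b had 163, 166 and 124 against 214, 202 and 198. For both, every ethanol mouse was below every control mouse in FPKM. The TMM log2 fold changes were 0.15 (SE 0.16, adjusted p = 0.472) for Ces3a and 0.23 (SE 0.13, adjusted p = 0.189) for Ces3b, on the other side of 0 from the library-size values above.

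The make-up of the pool shifted toward Ces1d and away from Ces3a. Ces1d made up 18.6% ± 1.55 of the summed FPKM of the 10 genes in the ethanol mice and 8.04% ± 1.34 in the controls (SD, n = 3 each). Ces3a made up 24.0% ± 2.37 and 34.4% ± 4.06, and Ces3b 5.81% ± 0.0634 and 7.86% ± 0.129. Ces2e also had a lower share in every ethanol mouse (1.84% ± 0.0466 against 2.66% ± 0.0967). The share of Ces2a was higher, although its lowest ethanol value of 7.48% was close to 7.45% in control mouse 1. The shares of the other 5 genes overlapped. Shares sum to a whole, so a larger share of Ces1d lowers those of the others.

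On measures without TMM factors, the share of all counts and FPKM, the ranges of the sum overlapped. With TMM factors all 10 genes lay above 0, so this overlap depends on the scaling. The 10 genes took 0.733%, 0.758% and 0.565% of all counts in ethanol mice 1 to 3 and 0.716%, 0.690% and 0.684% in control mice 1 to 3. They added up to 2763, 2873 and 2151 FPKM in the ethanol mice and 2684, 2575 and 2556 in the controls. Ces1c was the highest of the 10 in all ethanol libraries and in control mouse 1, and Ces3a was the highest in control mice 2 and 3. Ces1d followed these 2 genes in the ethanol mice and control mouse 1, and Ces3b stood between them and Ces1d in the other controls.

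**Figure D3:**
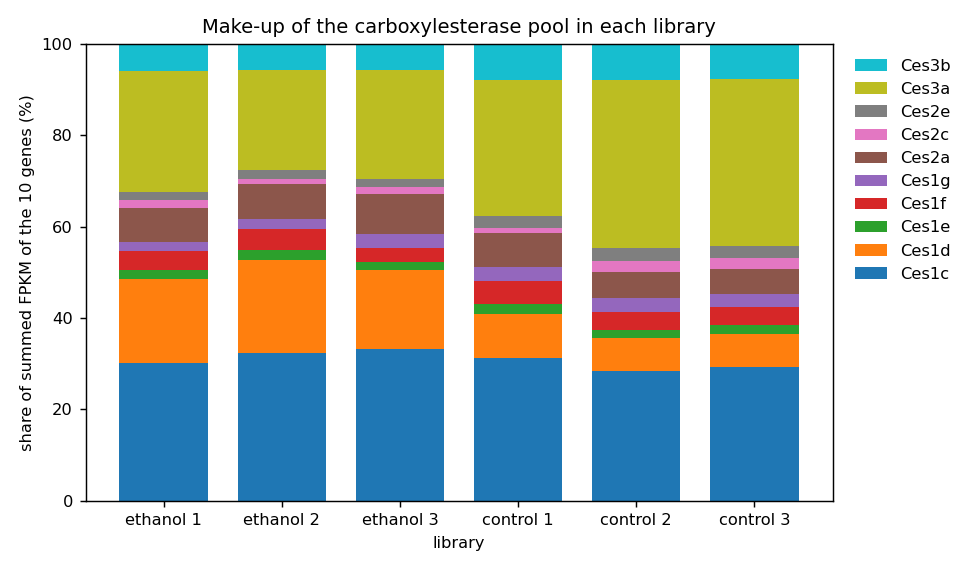
Share (%) of each gene in the summed FPKM of the 10 carboxylesterases, 1 stacked bar per library. Ces1d takes 17.2% to 20.2% in ethanol mice and 7.12% to 9.57% in controls, and Ces3a takes 21.8% to 26.5% and 29.7% to 36.8%.

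The spread among mice of a group was partly shared by the genes. Ethanol mouse 3 had the lowest FPKM of its group for 8 of the 10 genes, where it was lowest for 44.5% of all genes tested. Control mouse 1 had the highest of its group for 8 of the 10, where it was highest for 42.1% of all genes. Without ethanol mouse 3 the log2 fold change of Ces1d was 2.04, and without control mouse 1 it was also 2.04. Leaving out any 1 mouse kept Ces1d called, between 1.78 and 2.04.

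In bulk tissue, fewer cells of a type and less RNA per cell cannot be told apart. Of 19 hepatocyte markers tested, 7 were called higher and none lower, beside 10.4% and 13.8% of all genes tested. The markers had a median log2 fold change of 0.82 on the TMM scale. Their summed FPKM was 68919 to 71393 in the ethanol mice and 57353 to 63602 in the controls. The markers include acute and fasting-responsive genes (Fgb and Tat), and their part in the carboxylesterase values was not tested. Adipose tissue and intestine also use carboxylesterases. Of 8 adipocyte markers 3 were tested and 2 of them, Pparg (1.00, adjusted p = 0.0318) and Fabp4 (1.69, adjusted p = 0.0171), were called higher, with a summed FPKM over the list of 5.92 to 6.50 with ethanol and 3.21 to 5.79 without. The defining adipocyte genes Adipoq and Lep had at most 12 and 4 counts in any library. Of 10 intestinal markers 6 were in the table and 4 were tested, and 1 was called higher, Muc2 (2.49, adjusted p = 0.0161), with 19 to 71 counts in the ethanol mice and 8 to 11 in the controls. Their summed FPKM was 22.8 to 27.8 with ethanol and 24.4 to 30.1 without, most of it Fabp2. The defining gene Cdx2 had 0 counts in all 6 libraries, which allows up to 3 counts in each, and Lct had at most 5.

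Markers of other cells moved too, where 10.4% of all genes tested were called higher and 13.8% lower. Of the neutrophil markers 4 of 5 tested were called higher (median 4.08, summed FPKM 2.45 to 14.4 against 0.861 to 1.07). Of the erythroid markers 4 of 5 tested were called higher (median 2.26, summed FPKM 532 to 761 against 201 to 250). Of 10 liver endothelial markers 2 were called higher and 3 lower (summed FPKM 25.1 to 41.4 against 45.3 to 50.5). Of 10 stellate cell and fibroblast markers 2 were called lower (42.7 to 54.7 against 56.1 to 58.8 FPKM). Of 6 cholangiocyte markers tested 1 was called higher (19.7 to 27.7 against 26.1 to 54.4 FPKM), and of 6 lymphocyte markers tested 1 was called lower (0.352 to 1.08 against 1.19 to 1.84 FPKM). None of 10 Kupffer cell markers was called (54.6 to 68.8 against 94.2 to 105 FPKM), nor either of the 2 pancreas acinar markers tested (3.08 to 3.86 against 9.16 to 11.4 FPKM). On the TMM scale the medians were -0.22 for endothelial, -0.27 for stellate, -0.22 for cholangiocyte and -0.67 for lymphocyte markers. They were -0.21 for Kupffer cell and -0.39 for acinar markers. Summed FPKM is not TMM-scaled, and with library size alone the median over all genes tested was -0.71. The part of these cells in the carboxylesterase values was not tested.

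The 10 genes lie on chromosome 8 in 2 clusters. The coordinates of the deposited table differ from those of GRCm38.p6, although the processing notes name GRCm38, and their build is unsettled. As the table gives them, the Ces1 genes run on the minus strand from chr8:93746842-94063936 and the others on the plus strand from chr8:105460635-105876741. The clusters hold 18 carboxylesterase genes, 17 of which were tested. In the Ces1 cluster the log2 fold changes of the 7 genes on the TMM scale ranged from 0.33 to 1.88, with a median of 0.76. In the Ces2 to Ces4 cluster the 10 genes tested ranged from -2.62 to 0.99, with a median of 0.14. Ces1d, at chr8:93892696-93924466, lies between Ces1c (chr8:93825643-93857911) and Ces1e (chr8:93927846-93956247), neither of which was called.

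**Figure D4:**
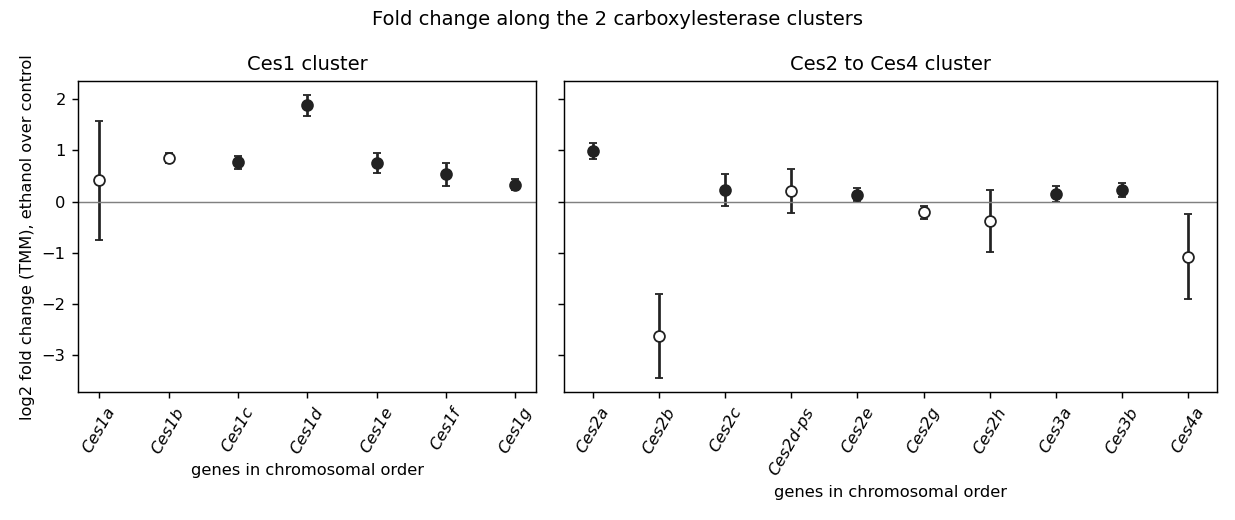
Log2 fold change (TMM scale, bars are SE) of the 17 carboxylesterase genes tested, in chromosomal order within each cluster. Filled points are the 10 genes described and open points the others, Ces1d stands above its neighbours in the Ces1 cluster, and Ces2b (-2.62) is the lowest of the other cluster. With library size alone 6 of the 10 filled points fall below 0.

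Among the other carboxylesterase genes, 1 of 7 tested was called, where 24.2% of all genes tested were called. It was Ces2b, which was lower. Its counts were 126, 39 and 49 in the ethanol mice and 123, 796 and 920 in the controls. Control mouse 1 was within the ethanol range. The log2 fold change was -2.62 (SE 0.82, adjusted p = 0.0373), and the call was lost when ethanol mouse 2 or 3 or control mouse 2 or 3 was left out (adjusted p of 0.0603 to 0.114), and over all alternatives the adjusted p reached 0.171. Without ethanol mouse 1 the value was -3.32. The neighbouring pseudogene Ces2d-ps had 14.4, 7.23 and 15.4 FPKM in the ethanol mice and 8.36, 21.2 and 22.3 in the controls. As for Ces2b and Ces2c, control mouse 1 was the lowest control. Ces2a, upstream of these genes, was highest among the controls in that mouse.

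**Figure D5:**
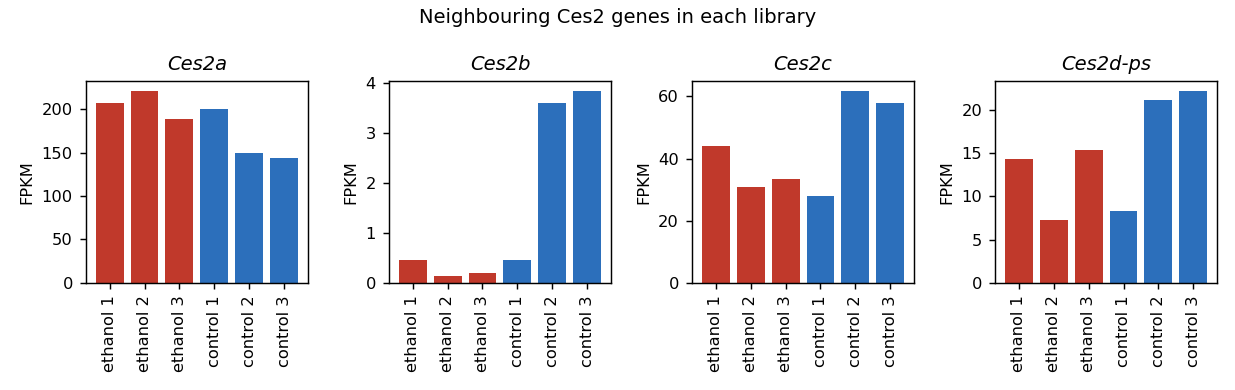
FPKM of the neighbouring genes Ces2a, Ces2b, Ces2c and Ces2d-ps in each library (red, ethanol; blue, control; separate linear axes from 0). Control mouse 1 stands with the ethanol mice for Ces2b (0.455 FPKM against 3.61 and 3.86 in the other controls), Ces2c and Ces2d-ps, and Ces2a is at 200 FPKM in that mouse.

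Ces1b, between Ces1a and Ces1c, had a log2 fold change of 0.85 (SE 0.10, adjusted p = 9.4e-04) with TMM and 0.18 by library size. Ces2g had -0.21 (SE 0.13, adjusted p = 0.236) with TMM and -0.87 (adjusted p = 0.00241) by library size. Ces4a had -1.07 (SE 0.83, adjusted p = 0.328), with 6 counts in ethanol mouse 3 against 136 and 161 in the other ethanol mice. By library size it was -1.72, and limma on log2(FPKM + 0.1) gave -1.97 (adjusted p = 0.0477), which met the rule for a call. Without ethanol mouse 3 the value of Ces4a was -0.51 (adjusted p = 0.108). Ces1a and Ces2h stayed at no more than 36 counts in any library, and Ces2f, whose counts were 0 to 3, was not tested. Ces1h and Ces5a were not analysed here.

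Of 9 genes between the carboxylesterases of the clusters, 7 were tested. Of these, 1 was called higher and 1 lower, beside 10.4% and 13.8% of all genes tested. Gm45724, a gene model on the strand opposite Ces3a (chr8:105777681-105778100), had 0 counts in all 3 ethanol mice and 157, 146 and 249 in the controls. Taking 3 counts in each ethanol library as the limit of detection, it was at least 42.3-fold lower after TMM scaling. In GENCODE M21 it shares 1 of its 420 exon bases with an exon of Ces3a. Gm6831, a pseudogene after Ces2a, had 129, 56 and 162 counts with ethanol and 0, 27 and 0 without. Its log2 fold change was 4.14 (SE 1.34, adjusted p = 0.0419), a call lost under 9 of the alternatives tried, among them leaving out any 1 mouse but control mouse 2. The size rested on that mouse, the only control with counts, since fitted values with 1 mouse left out ranged from 3.52 to 10.2 and the highest was the one without it. Whether the reads were counted by strand is not stated, so transcripts on opposite strands of one locus may share reads.

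Close copies can share reads as well. Coding sequences were 72.3% to 81.5% identical within the Ces1 members, 82.4% to 83.6% within the Ces2 members and 95.3% between Ces3a and Ces3b. The Ces1d transcript of GENCODE M21 shared 1.28% of its 50-base windows and 0% of its 150-base windows unchanged with a transcript of another gene. The shares of 50-base windows were 42.2% for Ces2c, 30.9% for Ces3a, 26.1% for Ces3b, 22.2% for Ces2a and 17.0% for Ces1c, and the highest share of 150-base windows was 4.03%, for Ces2a. Counts were also summed within each subfamily, which does not recover reads discarded as shared or assigned to genes outside the sums. The 7 Ces1 genes summed gave a log2 fold change of 0.98 (SE 0.15, adjusted p = 0.0022), the 8 Ces2 genes 0.61 (SE 0.10, adjusted p = 0.00366) and the 2 Ces3 genes 0.17 (SE 0.15, adjusted p = 0.401), none past the threshold. By library size they were 0.31, -0.057 and -0.50.

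RefSeq promoters on GRCm38.p6, from 250 bases before the start to 50 after, matched 7 of the 10 genes. None was available for Ces1d, Ces1f and Ces3a, so these were not searched. On either strand, TATAAA was found in Ces1g and Ces3b (13.6% of all promoters), the nuclear receptor half-site AGGTCA in Ces2a (16.3%) and GTTAAT, a half-site of HNF1, in Ces3b (7.1%). No 2 matches overlapped, and a match is a description of these letters only.

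Genes that work beside the carboxylesterases were counted in the same fit on the TMM scale. Of 23 other ester and lipid hydrolases, 4 were called higher and none lower, beside 10.4% and 13.8% of all genes tested. The list had a median log2 fold change of 0.39. Without the threshold on the fold change, 8 were higher and 4 lower, where each direction held 21.5% of all genes. The 4 lower were Lipa (-0.95), Siae (-0.80), Abhd15 (-0.74) and Lypla2 (-0.39). Each was below the controls in FPKM in every ethanol mouse, as were 57.4% of all genes tested. That separation is therefore no added evidence for these 4. Pnpla2, the adipose triglyceride lipase, rose by 2.52 (SE 0.16, adjusted p = 9.88e-05) on the TMM scale and by 1.84 with library size alone. Its mean FPKM, which is not TMM-scaled, was 47.3 with ethanol and 13.2 without, a ratio of 3.58. Abhd6, a monoacylglycerol lipase, rose by 1.63 (adjusted p = 0.00527) and Nceh1, a cholesteryl ester hydrolase, by 1.27 (adjusted p = 0.00174). Abhd2 rose by 1.02 (adjusted p = 0.00654), close to the threshold, and lost the call in 13 of 17 alternatives, among them leaving out ethanol mouse 1 or 2 or control mouse 1 or 3 (0.87 to 0.99). Nceh1 and Abhd6 were under the threshold with library size alone. Aadac, the arylacetamide deacetylase that shares substrates with carboxylesterases, had 0.26 (adjusted p = 0.176). Its FPKM was 240, 252 and 182 in the ethanol mice and 329, 282 and 286 in the controls. The direction of Aadac thus rested on the scaling.

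Of 18 genes of VLDL assembly and lipid droplets, 5 were called higher and none lower, with a median of 0.44. The shares over all genes tested were 10.4% and 13.8%. The 5 genes called higher were Cidec (6.15, adjusted p = 2.11e-04), Hilpda (4.97, adjusted p = 0.00186), Plin4 (4.38, adjusted p = 2.81e-04), Plin5 (1.90, adjusted p = 1.44e-04) and Dgat1 (1.21, adjusted p = 2.72e-04). Cidec, Hilpda, Plin4 and Plin5 code for proteins of the lipid droplet surface, and Dgat1 for an enzyme of triacylglycerol synthesis. The assembly genes Apob and Mttp had values of 0.09 (adjusted p = 0.635) and 0.32 (adjusted p = 0.137). Their ethanol to control ratios of mean FPKM were 0.67 and 0.79, so the direction of both rested on the scaling. In FPKM the groups overlapped for Mttp and not for Apob. Dgat1 was under the threshold with library size alone, and Hilpda was at 4.30 without ethanol mouse 2.

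Of 4 genes tied to retention in the endoplasmic reticulum, Kdelr2 was called higher, where 10.4% of all genes tested were called higher. It codes for a receptor that returns proteins with a retrieval signal, and its log2 fold change was 1.47 (SE 0.12, adjusted p = 2.21e-04), with 11546, 14305 and 10176 counts in the ethanol mice and 6692, 5897 and 6222 in the controls. By library size it was 0.81 and under the threshold. Gusb, the beta-glucuronidase that egasyn binds, had 0.76 (adjusted p = 0.00169) and was not called.

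Of 18 factors of xenobiotic control, 6 were called higher and 1 lower, with a median of 0.61. The shares over all genes tested were 10.4% and 13.8%. Por, the reductase that supplies electrons to cytochromes P450, rose by 3.64 (adjusted p = 4.51e-05), Cebpb, a transcription factor of the acute-phase response, by 3.30 (adjusted p = 6.4e-05) and Ahr, the aryl hydrocarbon receptor, by 1.70 (adjusted p = 0.0109). The value of Ahr was 1.05 by library size, with an adjusted p of 0.0543. Nr0b2, a receptor that represses other nuclear receptors, fell by 2.92 (adjusted p = 1.93e-04).

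Of 24 tested target genes of the receptors CAR and PXR, 6 were called higher and 2 lower, with a median of 0.44. The shares over all genes tested were 10.4% and 13.8%. Cyp2b10 (4.25, adjusted p = 9.88e-05), Cyp2a5 (3.01, adjusted p = 2.18e-04) and Alas1 (2.86, adjusted p = 7.45e-05) were the 3 called higher with the largest change. Cyp2b10 and Cyp2a5 are drug-oxidising cytochromes P450 and Alas1 starts heme synthesis. Cyp2c55 (-1.79, adjusted p = 7.53e-04) and Gstm3 (-1.09, adjusted p = 0.00473) were the 2 called lower, and Gstm3 was at -0.97 without ethanol mouse 2. Cyp3a11, the main PXR target of the class, had 0.25 (adjusted p = 0.17). Its FPKM was 918, 917 and 696 in the ethanol mice and 1167, 1132 and 1083 in the controls. The direction of Cyp3a11 thus rested on the scaling. Cyp3a13 (1.61, adjusted p = 0.0015) and Nr1i2, the gene of PXR (1.20, adjusted p = 0.00912), were called higher. The FPKM of Nr1i2 overlapped between the groups.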

How the data were processed

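Liver RNA-seq of 3 ethanol and 3 control mice was analysed. The authors deposited, per gene, a whole-number read count and an FPKM. Reads were paired-end, the aligner and counter are not given in the sources used here, and the submitters' processing notes name GRCm38 and mm10, although the table's coordinates lie elsewhere than GRCm38.p6 and are printed as given. Column totals were 60514417 to 74210869 counts, so mice rather than depth limit precision. One of the per-sample columns (1 column) matched no library and was not used. The study states larger groups than the libraries analysed here.

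Counts were filtered by filterByExpr, scaled by TMM and tested by edgeR 4.0.16 (quasi-likelihood, two-sided, Benjamini-Hochberg over all 16717 genes tested) in R 4.3.3. The code was also run on simulated data with few changed genes, which cannot check the choice of scaling. SE is the log2 fold change over the root of F. DESeq2 1.42.0 and limma 3.58.1 were alternatives. The square root of the common dispersion was 0.299. Sequences came from GENCODE M21 and were aligned with Biopython 1.88.

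Members and lists were chosen with earlier results of these data known. All members were named. In each other list, cell type markers apart, all called genes were named where 6 or fewer were called, and otherwise the 3 with the largest change in each direction. Ces1b, Ces2d-ps, Ces2g, Ces4a, Aadac, Apob, Mttp, Gusb and Cyp3a11 were named after their values were seen. So were Lipa, Siae, Abhd15, Lypla2, Cyp3a13, Nr1i2 and the marker genes. Floors cover counting error only. Each library is labelled as its own mouse.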

Additional observations from a re-analysis of the deposited data

How the results depend on the processing

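The depth of these libraries leaves counting error small for the 10 carboxylesterases, and 3 mice a group limit precision. The count called higher was 1 in the main analysis, 2 with limma-voom, 2 with a replicate block, 1 to 2 when 1 mouse was left out (2 without ethanol mouse 3 or control mouse 1) and 5 by adjusted p alone. The second gene was Ces2a. None was called lower under any alternative. Ces1d stayed called in all 17 alternative fits, between 1.20 and 2.04. Replicate numbers did not pair the mice, since deviations of same-numbered mice correlated at -0.04, -0.03 and -0.01, and the replicate block changed the calls over all genes from 4039 to 3518.

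Signs turned with the scaling, as log2 fold changes. With library size alone Ces1f was -0.13, Ces1g -0.33, Ces2c -0.44, Ces2e -0.53, Ces3a -0.52, Ces3b -0.44, Ces2d-ps -0.48, the Ces2 sum -0.057 and the Ces3 sum -0.50. With limma on log2(FPKM + 1) they were -0.17, -0.34, -0.37, -0.54, -0.53, -0.45 and -0.41 for the same 7 genes, and with log2(FPKM + 0.1) -0.17, -0.34, -0.38, -0.55, -0.53, -0.45 and -0.43. When only genes at a mean FPKM of 5 or more were tested, Ces2c was -0.046, Ces2e -0.14, Ces3a -0.12, Ces3b -0.046 and Ces2d-ps -0.065. Leaving out 1 mouse gave -0.059 to 0.42 for Ces2c (negative without control mouse 1) and -0.13 to 0.49 for Ces2d-ps (negative without control mouse 1, and -0.0035 without ethanol mouse 3). Over all genes, 43.0% of calls were higher with TMM, 13.6% with library size alone (6231 calls), 19.2% with log2(FPKM + 1) (2122 calls) and 13.8% with log2(FPKM + 0.1). At a mean FPKM of 5 or more, 872 of 4328 genes were called. TPM in place of FPKM left the ratio of the summed level at 0.902, against 0.996. The cause of these changes beyond the scaling was not tested.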
